A study of Mus musculus with 10 samples.

Results

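The interferon-stimulated genes described here are 38 genes that cells switch on when interferon binds its receptor, and they were chosen by symbol among the 54446 mouse gene identifiers counted. A gene entered when its identifier, with the version suffix dropped, carried one of the 38 symbols in the GENCODE annotation of GRCm38. All 38 were found, and 36 of them were among the 15181 genes that passed the filter on low counts. Oas3 and Mx1 did not pass it. They stood at 0 to 13 counts per library.

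The libraries came from primary smooth muscle cells of the mouse aorta, a culture of the contractile cells of the vessel wall. One group of 5 libraries was from wild type mice (WT), and the other group of 5 was from KitW/Wv mice (WWv), which carry 2 mutant alleles of Kit, the gene of a receptor tyrosine kinase. As background, W abolishes the receptor at the cell surface and Wv leaves a receptor with little kinase activity, and both alleles are carried in every cell from birth, so the genotype is not restricted to smooth muscle. The cells of both groups had been grown to passage 2 after collagenase digestion. No interferon or other agent was named for either group, and the sources used here do not give the animals' age, sex or strain. The labels name 5 mice per genotype without stating that each library was a separate mouse, so the p-values measure the spread between these libraries, part of which may be technical. The series compared the genotypes to see what smooth muscle cells express when they lose Kit signalling.

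Interferons are secreted proteins that warn neighbouring cells of infection. Type I interferon binds the receptor IFNAR, whose kinases TYK2 and JAK1 phosphorylate STAT proteins, STAT2 among them. STAT2 joins IRF9 in the complex ISGF3, which acts at a promoter element called ISRE, whereas interferon gamma acts mainly at an element called GAS. Even without infection, cells keep a low, tonic level of the response. Its products sense foreign nucleic acid, block viral translation and budding, and in arteries the response is best known from inflamed vessel walls.

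The 10 libraries held 42040255 to 53863661 counts each. Levels are given as CPM, the counts of a gene scaled to a common library total. Kit itself was at 4.12 ± 0.629 CPM in WT and 2.00 ± 0.764 in WWv (mean ± SD, n = 5 each), and the lowest WT library (3.19) lay above the highest WWv library (3.01). RNA level does not test these alleles directly, because mutant transcripts are counted too. On the first principal component (52.5% of the variance) the library WT 2 lay at 20.2, inside the WWv range of 11.5 to 33.4, while the other 4 WT libraries lay between -51.1 and -29.1, so counts that rest on WT 2 are given with and without it. Of 8 smooth muscle markers 6 were higher in WWv, against 12.8% of all genes. The summed level of the 8 was 9955 to 13019 CPM in WT and 16764 to 20150 in WWv. Of 7 fibroblast markers 5 were lower in WWv, against 15.4% of all genes, with sums of 5808 to 12124 and 7152 to 9510 CPM. Col1a1 made up most of these sums, at 5478 to 11562 CPM in WT and 6853 to 9295 in WWv. It was not called (log2 fold change -0.08, adjusted p 0.744, edgeR), so the sums do not show the 5 lower genes. None of 6 endothelial markers was called (0 at an unadjusted p under 0.05 with edgeR, 0 with DESeq2 and 0 with limma-voom), with sums of 55.3 to 323 CPM in WT and 89.5 to 208 in WWv, and the 323 was WT 2.

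Promoter elements through which interferon acts are shown here because some genes that differed and some that did not pass the test shared the same letters. In the RefSeq promoter table (GRCm38.p6, 250 bases before to 50 after each start) 27 of the 38 genes had an entry. An ISRE core was searched as GAAANNGAAA and a GAS element as TTCNNNGAA, on both strands, with overlapping matches kept. An ISRE match stood in 17 of the 27 (63.0%), against 3.44% of all 32851 promoters in the table. A GAS match stood in 7 (25.9%), against 8.3% of all promoters. Both stood in 4, Bst2, Gbp7, Igtp and Oas1a (14.8%, against 0.454%). The shares of the 27 are per gene, and a match in any entry of a gene counted. The shares of all promoters are per entry. The genes were picked as interferon targets, so the share with an ISRE describes that choice and was not tested.

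The first set holds matches in promoters of genes that were lower in WWv. Each line is read 5′ to 3′ in the direction of the gene, capitals mark the match, and 10 bases stand on either side.
Gbp2, ISRE, chr3:142620594-142620623, plus strand: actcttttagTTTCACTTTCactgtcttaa
Gbp3, 2 overlapping ISRE matches, chr3:142559989-142560024, plus strand: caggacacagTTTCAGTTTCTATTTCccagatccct
Gbp7, ISRE, chr3:142530273-142530302, plus strand: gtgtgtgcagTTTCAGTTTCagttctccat
Stat2, ISRE, chr10:128270266-128270295, plus strand: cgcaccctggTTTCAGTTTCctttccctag
Irf1, GAS, chr11:53769914-53769942, plus strand: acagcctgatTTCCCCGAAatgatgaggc
The Gbp3 and Gbp7 matches began 45 and 53 bases before the RefSeq start, that of Gbp2 59, that of Irf1 90 and that of Stat2 222. For Gbp7 and Stat2 the stretch just after that start was not found whole in a GENCODE transcript of the gene. The distances of these genes are therefore less certain. The match of Gbp2 lies in an exon of the longer GENCODE gene model and the other 4 lie outside the gene's exons. Irf9, also lower, had neither motif in its window.

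The second set holds matches in promoters of genes that did not pass the threshold.
Ifit1, ISRE, chr19:34640775-34640804, plus strand: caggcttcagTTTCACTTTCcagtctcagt
Ifit3, ISRE, chr19:34583363-34583392, plus strand: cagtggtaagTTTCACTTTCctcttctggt
Isg15, 3 overlapping ISRE matches, chr4:156200865-156200906, minus strand: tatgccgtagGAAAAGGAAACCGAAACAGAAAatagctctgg
Oas1a, 2 overlapping ISRE matches, chr5:120907520-120907555, minus strand: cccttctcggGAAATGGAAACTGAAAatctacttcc
Rsad2, ISRE, chr12:26456553-26456582, minus strand: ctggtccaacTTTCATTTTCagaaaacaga
Cxcl10, ISRE, chr5:92349083-92349112, minus strand: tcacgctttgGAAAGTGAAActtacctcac
The capitals TTTCACTTTC of Gbp2 are the same 10 letters as in Ifit1 and Ifit3, and the Ifit3 window recurs letter for letter in its neighbour Ifit3b at chr19:34607759-34607788. Ifit1 and Ifit3 each had 2 separate ISRE matches, of which 1 is printed. The match not printed has, in both genes, the same 10 letters as the matches of Gbp7 and Stat2 in the first set. Of the 16 tested genes with an ISRE match 4 were lower in WWv, and the median log2 fold change of the 16 was -0.22. Of the 10 tested genes with an entry and no ISRE match 2 were lower, with a median of -0.43. Of all genes tested 15.4% were lower. A match is a description of letters and not of binding. A window with no match says only that these letters are not there.

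In the WWv cells 7 of the 36 tested genes were lower and 1 was higher. Lower were the transcription factors Irf1, Irf9 and Stat2, the Z-form nucleic acid sensor Zbp1 and the guanylate-binding proteins Gbp2, Gbp3 and Gbp7. The gene that was higher was Ifi27l2b. The median log2 fold change of the 36 (WWv against WT) was -0.38, against -0.01 over all genes tested, and 27 of 36 were negative, against 51.2% of all genes. That median was -0.20 without WT 4, -0.24 without WT 5, -0.25 without WWv 1 and -0.26 in limma-voom. These calls are at an adjusted p under 0.05 in edgeR's quasi-likelihood test. Across all genes 28.2% were called, 15.4% lower and 12.8% higher, so the 19.4% of the interferon-stimulated genes called lower lay near the background and the 2.78% called higher lay under it. In bulk RNA, fewer cells that express a gene and less RNA per cell cannot be told apart.

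**Figure D1:**
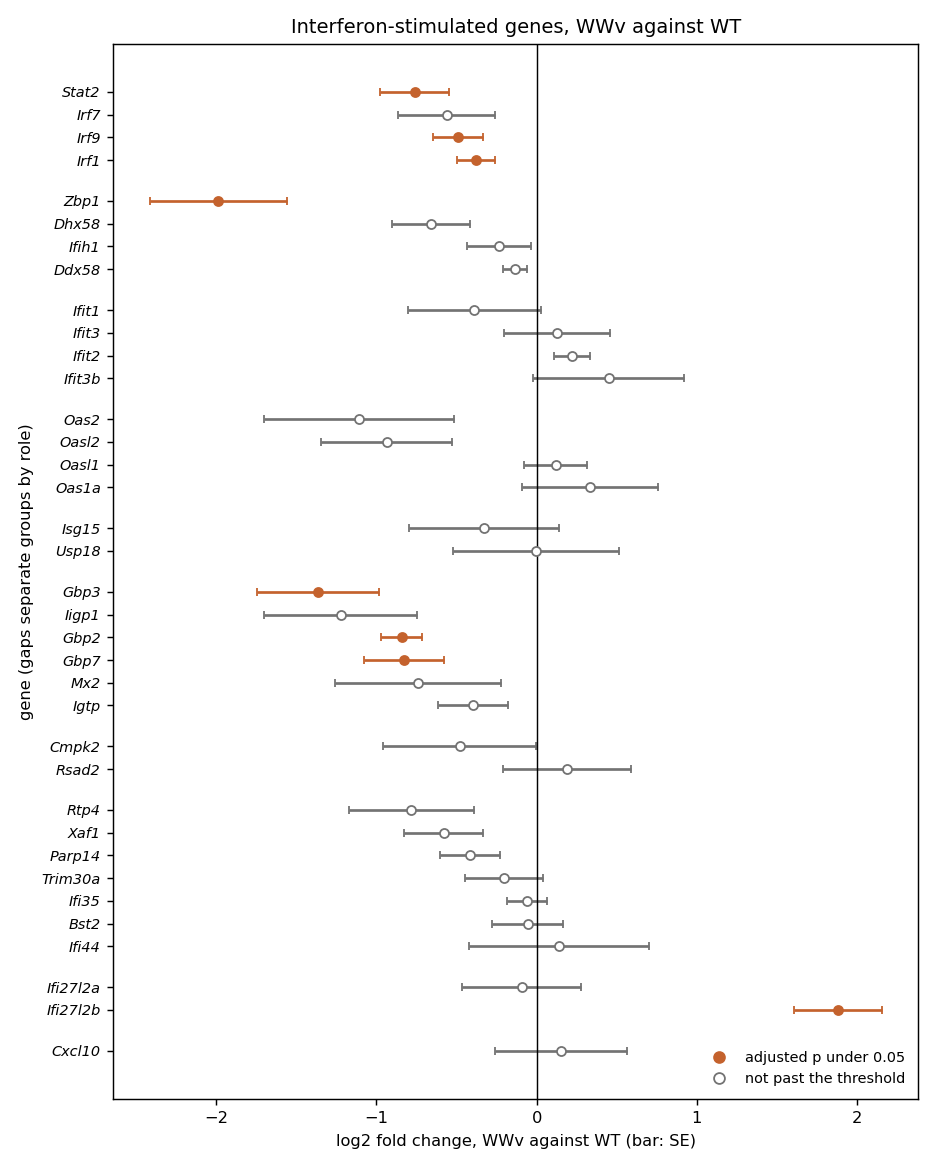
Log2 fold change of WWv against WT for the 36 tested interferon-stimulated genes, grouped by role; points are edgeR estimates, bars are 1 standard error, and colour marks genes past an adjusted p of 0.05. Of the 36 points 27 lie left of 0, and the 8 coloured genes are Irf1, Irf9, Stat2, Zbp1, Gbp2, Gbp3 and Gbp7 on the lower side and Ifi27l2b on the higher side.

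Of the 4 transcription factors 3 were lower, against 15.4% of all genes and 19.4% of the 36. STAT2 is the signal transducer that type I interferon activates. In the WT libraries numbered 1 to 5, Stat2 (chr10:128270559-128292849) stood at 32.8, 22.5, 31.8, 48.1 and 50.8 CPM, and in the WWv libraries 1 to 5 at 18.5, 18.5, 21.1, 22.2 and 29.4 CPM. WT 4 and WT 5 were highest, and the groups overlapped because WT 2 lay below WWv 5. The mean was 37.2 ± 11.9 in WT and 21.9 ± 4.46 in WWv, a log2 fold change of -0.76 ± 0.21 (SE) with an adjusted p of 0.0231 in edgeR.

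IRF9 is the DNA-binding subunit of ISGF3. Irf9 (chr14:55603571-55610030) stood at 21.7, 16.3, 20.6, 25.2 and 28.4 CPM in WT and at 12.6, 14.9, 14.8, 17.3 and 20.1 CPM in WWv. The same WT 4 and WT 5 were highest and WWv 1 was lowest, with WT 2 inside the WWv range. The log2 fold change was -0.49 ± 0.16, with an adjusted p of 0.0376 in edgeR.

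IRF1 is the factor that interferon gamma induces through its GAS element, printed above. Irf1 (chr11:53770014-53778374) stood at 7.95, 5.52, 7.29, 8.38 and 7.95 CPM in WT and at 4.79, 6.11, 5.75, 5.88 and 6.00 CPM in WWv. Here 4 WT libraries lay between 7.29 and 8.38, above every WWv library, and WT 2 lay below 4 of the 5 WWv libraries. The log2 fold change was -0.38 ± 0.12, with an adjusted p of 0.0356 in edgeR. Irf7, the factor that amplifies type I interferon production, stood at 3.61 ± 1.52 CPM in WT and 2.44 ± 0.818 in WWv, a log2 fold change of -0.56 ± 0.30 that did not pass (adjusted p 0.187, edgeR).

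These 3 calls were sensitive to single libraries. The call of Irf1 was lost when any library but WT 2 or WWv 5 was left out, with adjusted p values of 0.0520 to 0.0852 in edgeR. That of Irf9 was lost under the same 8 omissions, with 0.0545 to 0.0885. That of Stat2 was lost without WT 4, WT 5, WWv 2 or WWv 3, with 0.0525 to 0.0578. Small parts of 2 of these genes overlap another gene, 135 of 3976 exon bases of Irf1 with Gm17334 and 123 of 5386 of Irf9 with Rnf31. Leaving out WT 2 gave -0.47, -0.58 and -0.89 as the log2 fold changes of Irf1, Irf9 and Stat2.

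Among the sensors, Zbp1 was lower and the 3 RIG-I-like receptor genes were not called. ZBP1 recognises Z-form RNA and DNA and can start necroptosis. Zbp1 (chr2:173206612-173218923) stood at 2.13, 1.53, 3.30, 3.98 and 8.04 CPM in WT and at 0.787, 0.743, 0.866, 0.797 and 1.55 CPM in WWv. WT 5 was far above the other WT libraries, 4 WWv libraries lay together under 0.87, and WWv 5 passed WT 2 by a narrow margin, which was the only overlap. The mean was 3.80 ± 2.56 in WT and 0.948 ± 0.338 in WWv, a log2 fold change of -1.99 ± 0.43 with an adjusted p of 0.00726 in edgeR, the lowest fold change of the 36 genes. Without WT 5 it was -1.52, and the call held without any 1 library.

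RIG-I (Ddx58), MDA5 (Ifih1) and LGP2 (Dhx58) detect viral RNA in the cytoplasm. Ddx58 was the most even of them, with 33.9 to 44.6 CPM in WT and 35.1 to 38.8 in WWv and a log2 fold change of -0.13 ± 0.07 (adjusted p 0.197, edgeR). Ifih1 ran from 4.81 to 8.86 CPM in WT and from 3.67 to 6.15 in WWv, with -0.23 ± 0.20 (adjusted p 0.405, edgeR). Dhx58 stood at 2.79 ± 0.975 and 1.76 ± 0.418 CPM, with -0.66 ± 0.24 (adjusted p 0.0633, edgeR).

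Of the interferon-inducible GTPases, 3 of 6 tested were lower, against 15.4% of all genes, and all 6 log2 fold changes were negative, against 51.2%. DESeq2 called 4 of them lower and limma-voom 2. Guanylate-binding proteins assemble on vacuoles and membranes of intracellular pathogens. Gbp2 (chr3:142620602-142638008) stood at 16.8, 13.8, 16.7, 20.4 and 23.7 CPM in WT and at 9.62, 9.71, 10.2, 11.1 and 10.2 CPM in WWv. It was the only gene of the 36 whose WWv libraries all lay under the whole WT group, WT 2 included, a separation that 7.84% of all genes had. The mean was 18.3 ± 3.81 in WT and 10.2 ± 0.592 in WWv, a log2 fold change of -0.84 ± 0.13 with an adjusted p of 0.00142 in edgeR. It ranged from -0.92 to -0.73 over the omissions of 1 library.

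Gbp3 and Gbp7 are its neighbours on chromosome 3. Gbp3 (chr3:142560026-142573209) stood at 3.21, 2.29, 2.96, 4.80 and 7.26 CPM in WT and at 0.630, 1.28, 1.59, 1.87 and 2.54 CPM in WWv. Only WT 2 overlapped with the WWv group, which it entered below WWv 5. The log2 fold change was -1.37 ± 0.38, with an adjusted p of 0.0222 in edgeR, which became 0.0522 without WT 5 and 0.0560 without WWv 2. Gbp7 (chr3:142530342-142550149) stood at 2.46, 1.66, 1.87, 4.00 and 3.29 CPM in WT and at 1.53, 1.09, 1.56, 1.44 and 1.85 CPM in WWv. WT 4 and WT 5 were again highest, and WT 2 lay inside the WWv range. Its log2 fold change was -0.83 ± 0.25 with an adjusted p of 0.0309 in edgeR. The call was lost with any of 3 WT libraries (1, 4 and 5) or 3 WWv libraries (2, 3 and 4) left out, at 0.0521 to 0.0738, and in limma-voom, with 0.0542. Gbp7 shares 637 of 5614 exon bases with the pseudogene Gm43802 on the same strand, and 12.7% of its 50-base stretches occur in another gene, so its counts are less certain than those of Gbp2, at 2.03%.

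IIGP1 and IGTP are immunity-related GTPases that attack parasite vacuoles, and MX proteins trap viral nucleocapsids. Iigp1 had one of the lowest estimates without a call, 2.49 ± 1.47 CPM in WT and 1.06 ± 0.580 in WWv, a log2 fold change of -1.22 ± 0.48 (adjusted p 0.0772, edgeR). Igtp gave -0.40 ± 0.22 (adjusted p 0.193, edgeR), and shares 162 exon bases with Irgm2. Mx2, which GENCODE lists as a polymorphic pseudogene, gave -0.74 ± 0.52 (adjusted p 0.301, edgeR). Mx1 was barely present, with 3, 0, 2, 9 and 5 counts in the WT libraries and 0, 0, 1, 2 and 3 in WWv. Counts of 3 correspond to 0.0571 to 0.0722 CPM here.

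**Figure D2:**
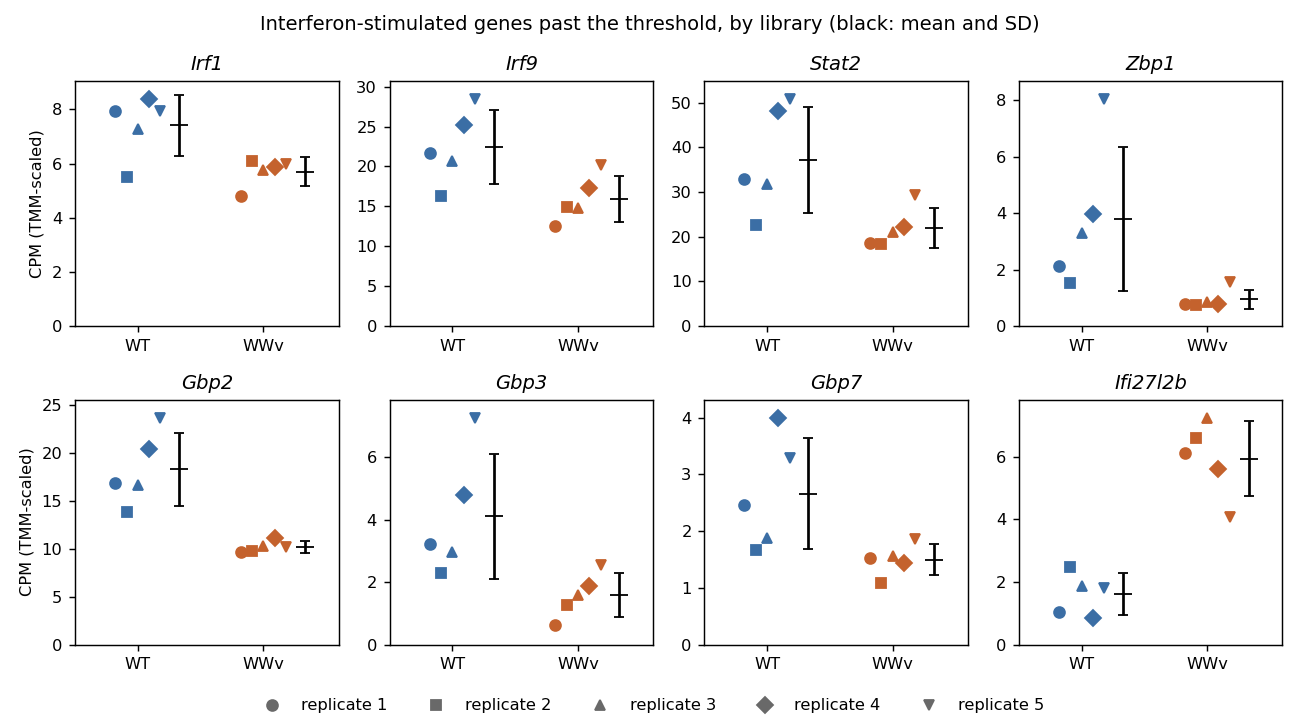
Level in CPM of the 8 interferon-stimulated genes past the threshold in each library, one panel a gene with its own axis from 0; points are libraries, with the marker shape giving the replicate number, and bars are means with SD. In Gbp2 and Ifi27l2b the groups do not overlap, and in the other 6 panels WT 2 lies at or within the WWv range.

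Among the classical antiviral effectors no gene was called. IFIT proteins bind viral RNA and block its translation, and none of the 4 Ifit genes was called (0 at an unadjusted p under 0.05 in edgeR, 0 in DESeq2, 0 in limma-voom). Ifit1 gave -0.39 ± 0.42 (adjusted p 0.506, edgeR), from 3.81 ± 2.22 CPM in WT and 2.91 ± 1.22 in WWv. Ifit2, the most abundant of the family, gave 0.22 ± 0.11 (adjusted p 0.170, edgeR), from 17.0 ± 3.01 and 19.8 ± 1.93 CPM. It was one of 7 genes in which WT 4 and WT 5 were not the highest WT libraries, at 15.4 and 14.2 CPM, and without WT 2 it was called higher, at 0.33 with an adjusted p of 0.00781 in edgeR. Ifit3 gave 0.13 ± 0.33 (adjusted p 0.802, edgeR) and Ifit3b 0.45 ± 0.47 (adjusted p 0.498, edgeR). These paralogs share 51.2% of the 50-base stretches of Ifit3, so their counts cannot be fully separated.

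Catalytically active OAS enzymes make the 2-5A messenger that activates RNase L. None of the 4 tested genes of the family was called (1 at an unadjusted p under 0.05 in edgeR, 0 in DESeq2, 0 in limma-voom). Oas2 stood at 0.313, 0.151, 0.741, 0.952 and 1.58 CPM in WT and at 0.112, 0.209, 0.265, 0.452 and 0.649 CPM in WWv. Its WT libraries differed by 10.4 times from lowest to highest, the most of the 36, and the log2 fold change of -1.11 ± 0.59 did not pass (adjusted p 0.184, edgeR). Oasl2 gave -0.93 ± 0.41 (adjusted p 0.109, edgeR), Oasl1 0.12 ± 0.20 (0.679) and Oas1a 0.33 ± 0.42 (0.583). Of the 50-base stretches of Oas1a 57.6% also occur in Oas1g. Oas3 had 1, 5, 4, 3 and 2 counts in WT and 2, 13, 7, 3 and 8 in WWv.

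ISG15 is a ubiquitin-like protein that is joined to other proteins, and USP18 removes it and blocks IFNAR signalling. Neither was called (0 of 2 at an unadjusted p under 0.05 in edgeR, 0 in DESeq2, 0 in limma-voom). Isg15 stood at 3.57, 2.54, 2.48, 5.69 and 11.0 CPM in WT and at 1.30, 3.65, 4.50, 3.96 and 6.61 CPM in WWv. Libraries of 1 genotype spanned a wider range than the group means, which were 5.05 ± 3.56 and 4.00 ± 1.90, and the log2 fold change was -0.33 ± 0.47 (adjusted p 0.627, edgeR). Usp18 stood at 1.72 ± 1.12 CPM in WT and 1.70 ± 1.05 in WWv, with an adjusted p of 0.996 in edgeR. Its estimate lay so near 0 that its sign changed with the scaling.

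Viperin (Rsad2) makes a chain-terminating nucleotide from a substrate that its genomic neighbour CMPK2 supplies. Rsad2 gave 0.19 ± 0.40 (adjusted p 0.752, edgeR) and Cmpk2 -0.48 ± 0.48 (0.473), and 0 of the 2 had an unadjusted p under 0.05 or a call in DESeq2 or limma-voom. Both were highest of all 10 libraries in WT 4, at 1.62 and 1.70 CPM, against at most 0.658 in the other WT libraries.

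Of the other 7 effectors none was called (2 at an unadjusted p under 0.05 in edgeR, 0 in DESeq2, 0 in limma-voom). Tetherin (Bst2) holds budding virus at the cell surface. Per kilobase of exon Bst2 had the highest level of the 38 genes, 16.0 CPM per kilobase in WT and 15.3 in WWv, with a log2 fold change of -0.06 ± 0.22 (adjusted p 0.873, edgeR). Xaf1, a pro-apoptotic factor, gave -0.58 ± 0.25 (0.101). The ADP-ribosyltransferase gene Parp14 gave -0.41 ± 0.19 (0.121), and the receptor transporter gene Rtp4 gave -0.78 ± 0.39 (0.156). Trim30a gave -0.20 ± 0.24 (0.552), Ifi35 -0.06 ± 0.13 (0.744) and Ifi44 0.14 ± 0.56 (0.873). The chemokine Cxcl10, which recruits T cells, was at 0.295 ± 0.140 CPM in WT and 0.327 ± 0.186 in WWv, with 0.15 ± 0.41 (0.811). These bracketed values are adjusted p values of edgeR.

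Ifi27l2b ran in the other direction. It belongs to the IFI27 family of small membrane proteins, found in mitochondria and at the nuclear envelope. Ifi27l2b (chr12:103450898-103457223) stood at 1.04, 2.48, 1.85, 0.857 and 1.81 CPM in WT and at 6.12, 6.59, 7.24, 5.62 and 4.07 CPM in WWv. Every WWv library lay above every WT library, as in 8.03% of all genes, and WT 2 was the highest of the WT group. The mean was 1.61 ± 0.660 in WT and 5.93 ± 1.20 in WWv, a log2 fold change of 1.88 ± 0.27 with an adjusted p of 0.00122 in edgeR, and it ranged from 1.72 to 2.10 over the omissions of 1 library. Its neighbour Ifi27l2a (chr12:103442167-103443680), the member of the pair better known as an interferon target, stood at 0.376 ± 0.161 and 0.351 ± 0.151 CPM, with -0.09 ± 0.37 (adjusted p 0.872, edgeR). Only 0.211% of the 50-base stretches of Ifi27l2b occur in another gene.

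The genes varied widely between libraries of 1 genotype. The biological coefficient of variation, edgeR's estimate of the spread between replicates beyond counting noise, lay above the value usual for a gene's abundance in 30 of the 36 genes (83.3%), against 24.4% of all genes tested. Its median was 0.339 where the trend gave 0.240, while over all genes it was 0.124 where the trend gave 0.140. The highest WT library exceeded the lowest by a median of 2.68 times, against 1.38 times over all genes, and by more than 2 times in 26 of the 36. In WWv the median ratio was 2.09, against 1.24 over all genes, and passed 2 in 20 of the 36. Unlike the trend, these ratios were not matched for abundance and hold counting noise as well.

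**Figure D3:**
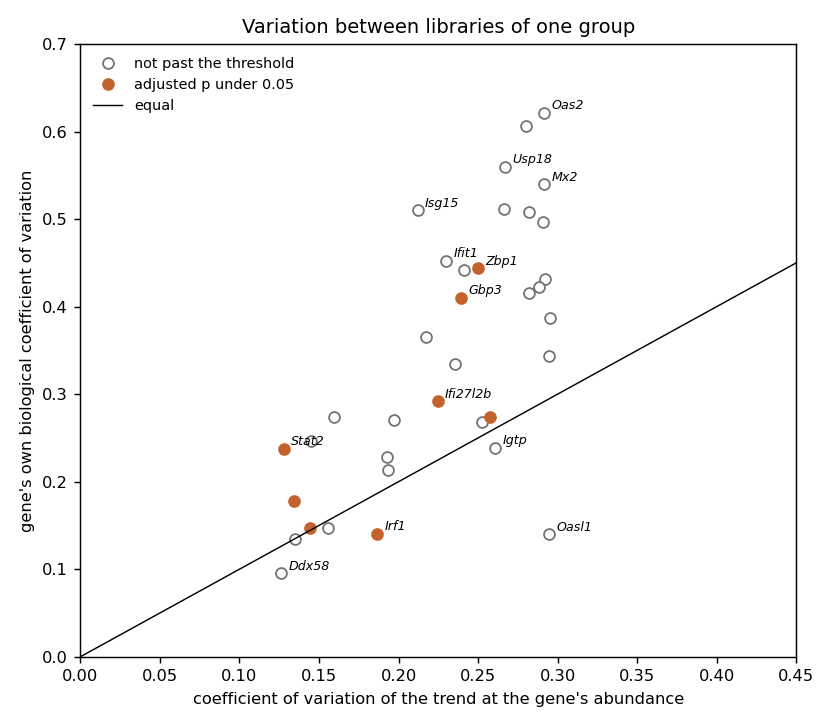
Biological coefficient of variation of each tested interferon-stimulated gene against the trend value at its abundance, with the diagonal where they are equal. Of the 36 points 30 lie above the diagonal, and their median is 0.339 against a trend of 0.240.

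The same libraries were high for most of the genes. WT 4 and WT 5 both lay above the other 3 WT libraries in 29 of the 36 (80.6%), against 20.4% of all genes tested. The 7 exceptions were Irf1, Ddx58, Ifit2, Oasl1, Ifi27l2a, Ifi27l2b and Cxcl10. Of the WT libraries WT 2 was lowest in 21 genes. In WWv, library 1 was lowest in 25 of the 36 (69.4%, against 27.3% of all genes), and WWv 4 or WWv 5 was highest in 30. The mean log2 CPM over the 36 genes was 1.31, 1.02, 1.28, 1.97 and 2.15 in WT 1 to 5 and 0.67, 1.07, 1.31, 1.48 and 1.67 in WWv 1 to 5. By this mean the groups overlapped, with WWv 3, WWv 4 and WWv 5 at or above WT 1, WT 2 and WT 3 and below WT 4 and WT 5.

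**Figure D4:**
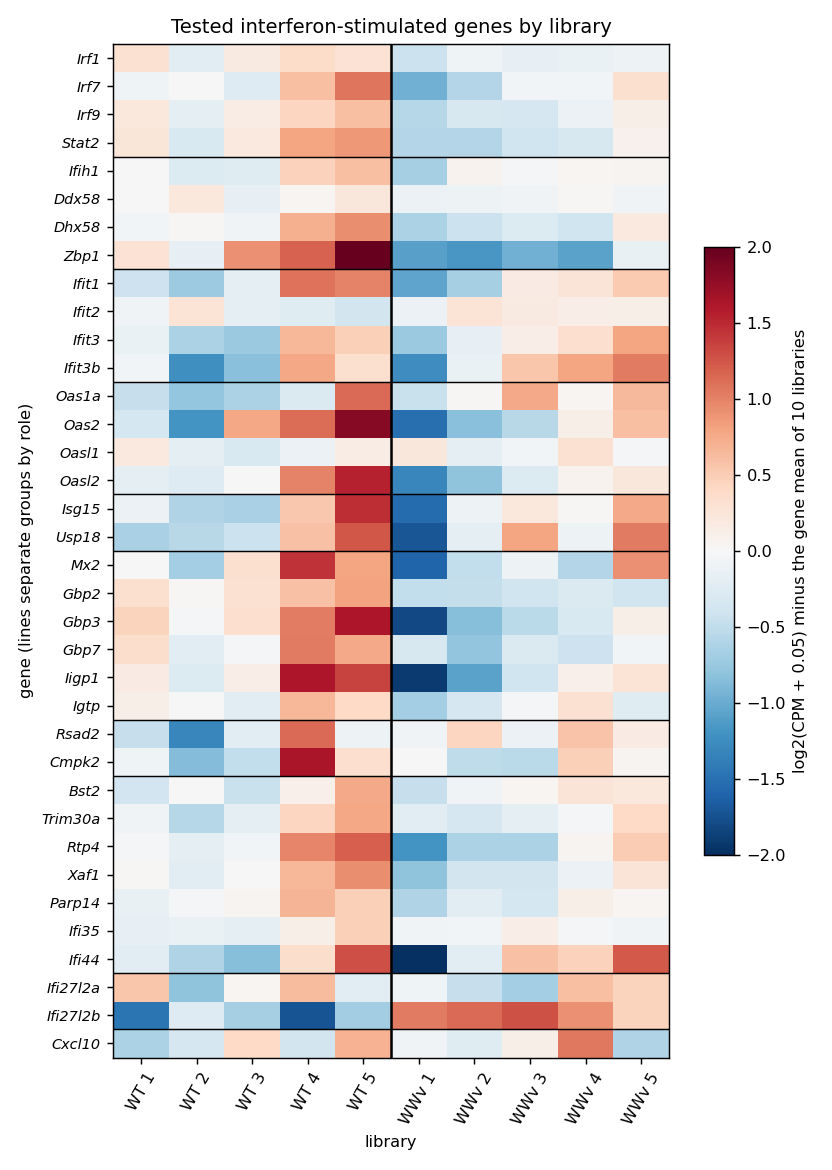
Heat map of the 36 tested interferon-stimulated genes (rows, by role) in the 10 libraries (columns), as log2(CPM + 0.05) minus the gene's mean over all libraries, with the colour scale limited at 2 in either direction. The columns of WT 4 and WT 5 are the warmest for most rows, the WWv 1 column is the coldest, and the row of Ifi27l2b runs the other way.

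Markers of cell types were read beside this pattern. The fibroblast proteoglycan Dcn stood at 105, 21.2, 93.1, 179 and 184 CPM in WT and at 22.8, 25.8, 32.8, 31.5 and 59.5 CPM in WWv. Lum stood at 23.2, 2.63, 24.8, 48.1 and 49.7 CPM in WT and at 1.10, 1.18, 2.07, 1.44 and 3.23 CPM in WWv. Both were highest in WT 4 and WT 5 and lowest among WT in WT 2. Of the 7 fibroblast markers 4 (Lum, Dcn, Col1a1 and Dpep1) had WT 4 and WT 5 above the other 3 WT libraries, and 6 had WT 2 lowest of WT. Pdgfra had neither feature, and was lowest of WT in WT 5. Of the 8 smooth muscle markers 3 had WT 4 and WT 5 highest and 4 had WT 2 lowest, and none of the 6 endothelial markers had either. The endothelial markers ran in the reverse order. Their sum was 78.3, 323, 94.9, 55.3 and 66.0 CPM in WT 1 to 5, lowest in WT 4 and WT 5 and highest in WT 2. Gene by gene, Tek departed from this with WT 1 (1.79 CPM) below WT 5 (2.05). Kdr departed with WT 1 (5.63) just above WT 2 (5.61). The part of the cell makeup in the values of the interferon-stimulated genes was not tested. Macrophage markers summed to 19.3 to 40.5 CPM in WT and 19.8 to 24.7 in WWv, and 0 of the 4 tested were called by edgeR (2 at an unadjusted p under 0.05, 0 in limma-voom), though DESeq2 called 4 of 10 lower. None of the 10 had WT 4 and WT 5 above the other WT libraries, and 4 (Csf1r, Lyz2, C1qa and C1qc) were lowest of WT in WT 2. The defining macrophage marker Adgre1, at 0.0940 to 0.448 CPM in WT, was at 0 in 4 of 5 WWv libraries. The 8 lymphocyte markers summed to 0.0470 to 0.271 CPM in WT and 0.0929 to 0.134 in WWv, and 0 of them were tested. Among them Cd3e, Cd3g and Cd8a were at 0 in every library, while Cd79a had 9 counts in WT 1.

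Single libraries also moved the estimates of genes without a call. In 22 of these 28 genes some omission of 1 library moved the log2 fold change by over 1.5 times or turned its sign. Among those that kept their sign, Irf7 ranged from -0.74 to -0.31, Ifit1 from -0.59 to -0.12 and Mx2 from -1.29 to -0.35. Oas1a ranged from 0.18 to 0.89, the last without WT 5.

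WT 2 bore on the count of genes called. Without it 12 of the 36 were lower, among 23.5% of all genes then tested, and 2 were higher, among 22.7%. Added to the 7 were Dhx58 (-0.73), Iigp1 (-1.39), Oas2 (-1.36), Oasl2 (-1.08) and Xaf1 (-0.69), with adjusted p values of 0.0258 to 0.0446 in edgeR. With WT 2 set aside, 7 of the 36 had every WWv library below the other 4 WT libraries, against 18.6% of all genes, and these were the 7 genes called lower with all libraries. Leaving out WT 5 or WWv 2 left 2 of the 7, Gbp2 and Zbp1.

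The genes that make, receive and pass on the interferon signal were read from a further list of 48. Of 10 interferon genes none passed the filter on low counts. Ifnb1 had 1 count in WT 4 and 1 in WWv 5, and 8 of the 10 were at 0 in every library. Of 33 tested genes of the list 13 were lower in WWv (39.4%, against 15.4% of all genes) and 1 was higher, with a median log2 fold change of -0.11.

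Of 6 receptor subunits 1 was lower, against 15.4% of all genes. This was Ifnar2, the high-affinity subunit of IFNAR. It stood at 35.4, 29.1, 35.3, 37.5 and 37.1 CPM in WT and at 25.3, 26.8, 25.8, 26.9 and 27.6 CPM in WWv, with no overlap between the groups. Its log2 fold change was -0.40 ± 0.07, with an adjusted p of 0.00251 in edgeR, though it shares 315 exon bases with Gm21970. Its partner Ifnar1 gave -0.10 ± 0.04 (0.0640, edgeR adjusted p). Tyk2, the kinase that sits on IFNAR1, fell by 0.30 ± 0.05 on the log2 scale (0.00267), and Jak1 by 0.15 ± 0.04 (0.0184), a call that was lost without the filter on low counts (0.0748).

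Of 13 tested sensors, adaptors and kinases upstream of interferon 5 were lower, against 15.4% of all genes, and 1 was higher, against 12.8%. Myd88, the adaptor of Toll-like receptors, stood at 51.9 ± 7.61 CPM in WT and 32.8 ± 2.00 in WWv, a log2 fold change of -0.66 ± 0.10 (adjusted p 0.00132, edgeR). The kinase gene Ikbke gave -0.66 ± 0.12 (0.00306). Tmem173, which encodes the DNA-signalling adaptor STING, stood at 36.3 ± 1.57 and 26.8 ± 0.956 CPM, with -0.44 ± 0.05 (0.000343). Cgas, which makes the messenger that activates STING, moved the other way, from 5.49 ± 0.839 to 7.33 ± 0.240 CPM, with 0.42 ± 0.10 (0.0130). Tbk1 and Irf3, the kinase and factor that STING engages, were lower by smaller amounts, -0.20 ± 0.05 (0.0139) and -0.29 ± 0.07 (0.0120).

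Of 10 tested negative regulators and nucleic acid enzymes 5 were lower, against 15.4% of all genes. Socs3, a feedback inhibitor of JAK kinases that cytokines of the interleukin-6 family also induce, stood at 47.5, 19.1, 56.0, 66.6 and 63.1 CPM in WT and at 12.4, 11.7, 12.9, 13.4 and 17.0 CPM in WWv. The groups did not overlap, WT 2 was again the lowest of WT, and the log2 fold change was -1.90 ± 0.28 (adjusted p 0.00128, edgeR). Socs1 gave -0.58 ± 0.11 (0.00461), Samhd1, which depletes nucleotides, -0.39 ± 0.10 (0.0172), and Ptpn2 -0.24 ± 0.06 (0.0171). Nlrc3 gave -0.61 ± 0.18 (0.0254), which became 0.0618 without WT 3, 0.0590 without WWv 2 and 0.0661 without WWv 3.

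**Figure D5:**
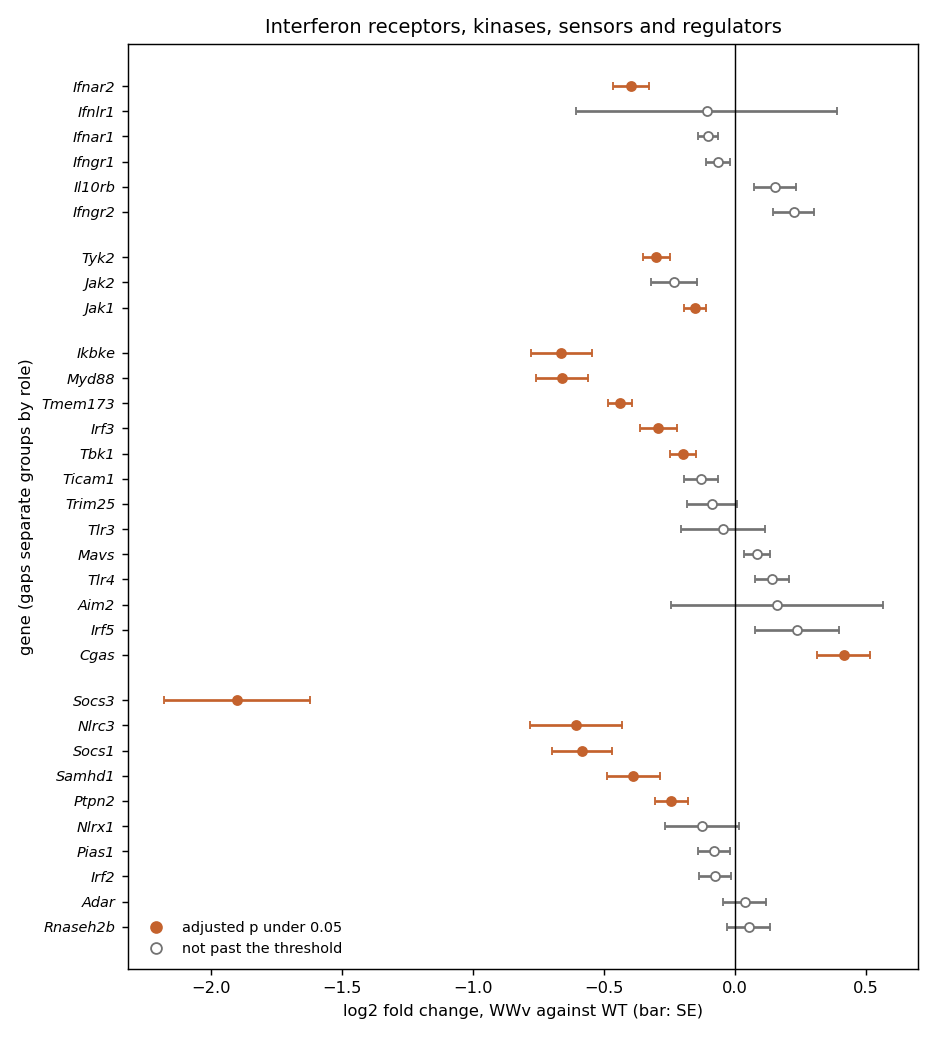
Log2 fold change of WWv against WT, with 1 standard error, for 32 tested genes of the interferon pathway list, grouped by their place in the pathway; colour marks an adjusted p under 0.05. Socs3 lies farthest to the left at -1.90, and Cgas is the only gene called on the higher side, at 0.42.

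A wider list of 76 further interferon-stimulated genes was counted in the same way, and it too was chosen with earlier results of these data known. Of 61 tested 19 were lower (31.1%, against 15.4% of all genes) and 2 were higher, Slfn9 (0.50 ± 0.09, adjusted p 0.00332) and Cd274 (0.46 ± 0.15, 0.0405), with a median log2 fold change of -0.26. The adjusted p of Cd274 was between 0.0514 and 0.0971 when WT 1, 3 or 4 or WWv 2, 3 or 5 was left out. Slfn5, a Schlafen gene, stood at 19.5, 8.93, 19.0, 47.7 and 42.7 CPM in WT and at 4.92, 5.83, 7.70, 6.20 and 9.03 CPM in WWv. WT 4 and WT 5 were high here too and WT 2 was lowest, just under WWv 5, with a log2 fold change of -2.03 ± 0.40 (0.00515). Uba7, the enzyme that activates ISG15, gave -1.60 ± 0.31 (0.00453) in these libraries in which Isg15 itself was not called. Ifitm1, which blocks entry of viruses, gave -1.58 ± 0.36 (0.00950), and Gbp9 gave -1.47 ± 0.28 (0.00388). Slfn5 shares 559 of 6326 exon bases with its antisense gene Slfn5os. The bracketed values in this and the preceding 3 paragraphs are adjusted p values of edgeR.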

How the data were processed

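Each gene's reads in 5 WT and 5 WWv libraries were deposited by the authors as raw counts, whole numbers that the submitters did not normalize. Per the submitters' processing notes, the tools were bcl2fastq 2.17, Trim Galore 0.4.3 and STAR 2.5.2a, with the build mm10; the counting tool, its strand setting and the annotation are not given in the sources used here, so overlapping genes and close paralogs are uncertain. Symbols and positions came from GENCODE M21 on GRCm38 for 54409 of 54446 identifiers, and the other 37 held 0.0026% of counts. Groups were taken from the labels.

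The test of WWv against WT was edgeR's quasi-likelihood F test (edgeR 4.0.16, run under R 4.3.3) with TMM normalization, group as the only term and filterByExpr at a minimum count of 10. P-values are two-sided, with Benjamini-Hochberg adjustment over 15181 genes. CPM used TMM-scaled library sizes and are means ± SD of 5 libraries. The standard error of a log2 fold change is its size divided by the square root of the test's F. Depth was 42040255 to 53863661 counts per library. The common biological coefficient of variation was 0.161. Levels per kilobase used the summed exon length of a gene. Shared 50-base stretches were counted in GENCODE transcripts.

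The 38 genes and the other lists were chosen with earlier results of these data known. All 38 are named; from each other list the up to 4 called genes with the largest change are named, and 1 gene of the pathway list is counted but not reported here. Ifnar1, Irf3, Tbk1, Ptpn2, Slfn9, Cd274, Ifnb1 and the single markers fall outside that rule and were picked with their values in view. The procedure was tested on simulated counts with planted fold changes. Those counts were drawn independently for each gene and library, so that run does not cover swings shared by many genes of 1 library. Alternatives were other normalizations and filters, robust dispersions, other thresholds, the replicate number as a block, limma-voom (limma 3.58.1), DESeq2 1.42.0 and the omission of each library, or of WT 2 and WWv 1 together.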

Additional observations from a re-analysis of the deposited data

Results flagged for a closer look

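In 6 of 72 gene and genotype combinations 1 library lay apart from the other 4 by Dixon's criterion at the 95% level, which chance meets in about 1 in 20 groups. In WWv 1, Irf1 was at 4.79 CPM, below 5.75 to 6.11 in the other WWv libraries, and Ifih1 was at 3.67 CPM, below 5.68 to 6.15. In WWv 5, Zbp1 was at 1.55 CPM, above 0.743 to 0.866. In WWv 3, Ifi35 was at 12.1 CPM, above 10.5 to 10.9. In WT 5, Oas1a was at 1.11 CPM, above 0.259 to 0.381 in the other WT libraries. In WT 4, Cmpk2 was at 1.70 CPM, above 0.259 to 0.658.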

How the results depend on the processing

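Gbp2, Zbp1 and Ifi27l2b kept their calls under every alternative run. Of 351 values of the 36 genes under 10 alternatives (normalization, filter, dispersion, block, tool, and WT 2 and WWv 1 left out together), 330 kept direction and side of the threshold, 3 lost and 12 gained a call, and 6 changed sign. Scaling by library size only gave 983 genes higher and 3599 lower (21.5% of calls higher, against 45.4%). Of the wider list 1 gene was then higher, against 2 in the main test. Without the filter on low counts 1 gene of the wider list was higher, and Irf1, Jak1 and Cd274 were not called. At an adjusted p under 0.01, 839 genes were higher and 988 lower, with 2 of the 36 lower, Gbp2 and Zbp1. Of the pathway genes 7 were lower and 0 higher, and of the wider list 8 were lower and 1 higher. At 0.1, 2 pathway genes were higher, as with DESeq2 and limma-voom. Without WT 2 and WWv 1 together 3361 genes were higher and 3750 lower. Then 2 of the 36, 4 pathway genes and 6 genes of the wider list were higher. Usp18 changed sign with RLE scaling (0.0008), no filter (0.0046), DESeq2 (0.0043) and that omission (0.102), and Bst2 with limma-voom (0.0089) and that omission (0.0263).

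Over all genes tested, replicate numbers did not pair the libraries. Deviations of same-numbered libraries correlated at -0.09, -0.01, 0.04, -0.07 and 0.31, and 1 of the 5 WT libraries, number 5, correlated best with its own number. For the 36 genes alone this was not computed. Their mean log2 CPM was highest in numbers 4 and 5 of both groups (1.97 and 2.15 in WT, 1.48 and 1.67 in WWv). It was lowest in different numbers, WT 2 (1.02) and WWv 1 (0.67), and a pairing for these genes was not tested. With the replicate number as a block 1943 of 15181 genes were lower and 1693 higher, and 13 of the 36 were lower, without Irf1 and with Dhx58, Iigp1, Oas2, Oasl2, Parp14, Rtp4 and Xaf1, and 2 pathway genes were higher, while Jak1 (adjusted p 0.0584, edgeR) and Nlrc3 (0.0655) were not called.

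Over the omissions of 1 library, 1286 to 3507 genes were higher and 1721 to 3620 lower. Of the 36, 1 to 2 were higher and 2 to 12 lower. Of the pathway genes 1 to 3 were higher and 12 to 15 lower, and of the further genes 1 to 5 higher and 11 to 23 lower. Log2 fold changes that changed sign ranged from -0.0971 to 0.340 for Ifit3, -0.593 to 0.167 for Isg15, -0.319 to 0.415 for Usp18, -0.0229 to 0.724 for Rsad2, -0.685 to 0.189 for Cmpk2, -0.162 to 0.180 for Bst2, -0.347 to 0.0042 for Trim30a, -0.116 to 0.0722 for Ifi35, -0.235 to 0.624 for Ifi44, -0.297 to 0.089 for Ifi27l2a and -0.263 to 0.4003 for Cxcl10. The causes were not tested. Oas3 and Mx1 lay under the filter on low counts, so depth limits what their values show.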
